A study of Mus musculus with 28 samples.

Results

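Renal dendritic cells of the medulla were compared with those of the cortex in healthy C57BL/6 kidneys, on 4 arrays of medullary and 4 arrays of cortical cells, which are 8 of the 28 arrays of the series. The arrays were chosen by the strain, the site and the condition given in the labels, and no measured value took part in the choice. Each of the 4 mice, numbered 1 to 4, gave 1 medullary and 1 cortical array. Kidneys were digested with collagenase and DNase, cells were sorted by flow cytometry for CD45, CD11c and MHC class II, and their RNA was amplified and hybridised to Affymetrix arrays. The C57BL/6 medulla and cortex groups are labelled as homeostatic, the labels name no transgene or treatment for them, and the sources used here give no sex, age or pooling of animals. BALB/c medulla and BALB/c cortex, with 4 arrays each of homeostatic cells from other mice, served for a comparison of strains, and the remaining arrays, of donor and host cells from kidney allografts, entered only the estimate of the spread.

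Dendritic cells take up, process and present antigen, and in the kidney they lie between the tubules, where they share surface proteins with resident macrophages. The cortex holds the glomeruli, the convoluted proximal tubules that reabsorb most of the filtrate, and the distal convoluted tubules that reclaim calcium. The medulla holds straight proximal tubule segments in its outer part, the loops of Henle and the collecting ducts, in a milieu that grows saltier and poorer in oxygen towards the papilla.

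Levels are log2 array signal, values of 4 arrays stand in the order of mice 1 to 4, and differences are medulla minus cortex on the log2 scale with the standard error from limma. The 40th percentile of all probesets lay between 7.33 and 7.41 on the 8 arrays and marks the dim range. Transcripts of the sorted proteins did not separate the regions. Ptprc, which encodes CD45, was at 12.82, 12.75, 12.84 and 12.77 in medulla and at 12.72, 12.92, 12.87 and 12.66 in cortex, a difference of 0.00 ± 0.37. The MHC class II chains H2-Ab1 and H2-Aa differed by 0.03 ± 0.37 and 0.02 ± 0.26. Itgax, the gene of CD11c, was at 10.89, 11.16, 10.95 and 11.36 in medulla and at 10.89, 11.32, 11.45 and 11.61 in cortex, a difference of -0.23 ± 0.52. The groups overlapped for each of these 4 genes. Each of the 8 arrays correlated at 0.94 to 0.95 with the others of its group, so no array stood apart over all probesets.

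Over the genome few genes passed, and nearly all of them were lower in the medulla. At an adjusted p under 0.05 over 14325 genes, 22 genes passed, 0.154% of those tested, of which 21 were lower in the medulla (0.147%) and 1 was higher (0.00698%). In each of the 21 lower genes all 4 medulla values lay below all 4 cortex values, which held for 331 genes tested (2.31%), while 273 genes (1.91%) had all medulla values above all cortex values. A difference beyond 2 log2 units was found in 73 genes on the lower side (0.51%) and in 8 on the higher side (0.0558%), and none of those 8 passed. The median difference of all genes was 0.02, and 535 genes (3.73%) had an unadjusted p under 0.05. The count of 22 moved to 38 with mouse as a random block in all arrays. That block applies 1 correlation, 0.134, estimated over all arrays. Residuals of same-mouse medulla and cortex arrays of C57BL/6 correlated at -0.003 on average. With the 8 arrays fitted alone the count was 5 without a block, and 1, Calb1, with mouse as a fixed block. It also moved with single arrays, to 7, 7, 40 and 6 without the medulla array of mouse 1, 2, 3 or 4, and to 9, 14, 55 and 11 without the cortex array of mouse 1, 2, 3 or 4.

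**Figure D1:**
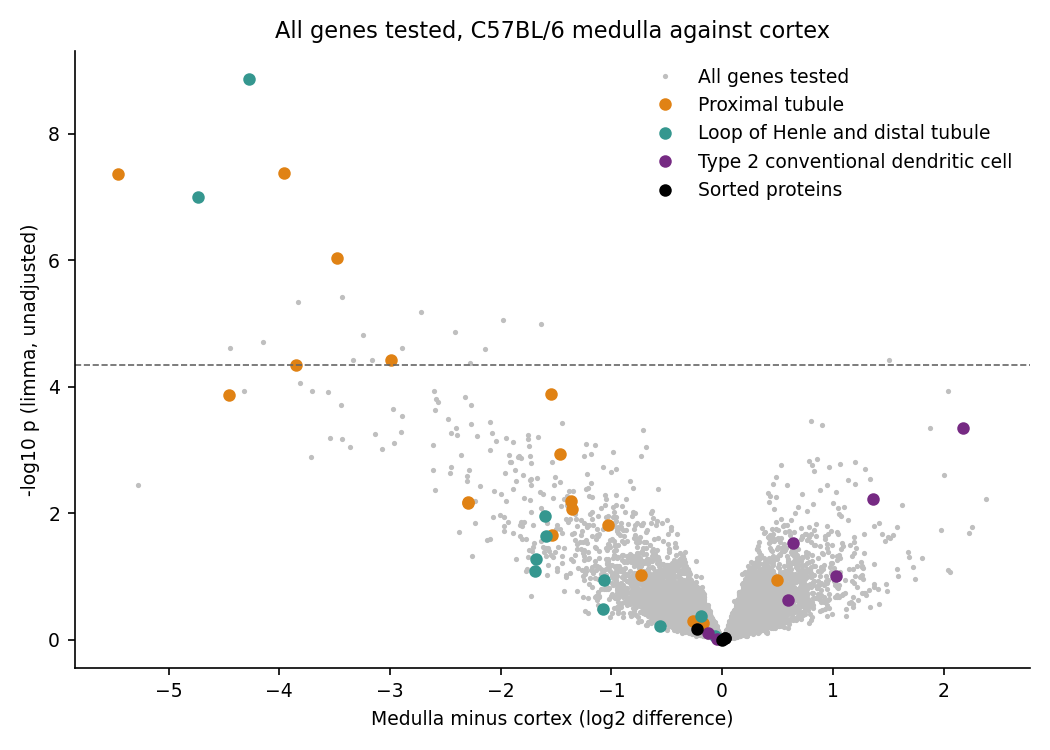
Difference between medulla and cortex (log2, horizontal axis) against -log10 of the unadjusted p from limma (vertical axis) for the 14325 genes tested in C57BL/6 cells, with 4 marker lists in colour. The dashed line is the p of the last gene that passed; tubule markers lie on the left, and genes of the sorted proteins lie near 0.

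A pair of calcium-binding proteins of the distal tubule were low in all 4 medulla arrays and high in all 4 cortex arrays. Calb1, which encodes calbindin-D28K, a cytosolic calcium buffer of distal convoluted and connecting tubule cells, was at 6.14, 6.25, 6.31 and 6.34 in medulla and at 10.80, 10.99, 11.45 and 10.75 in cortex. S100g, which encodes calbindin-D9k, a small vitamin D-responsive protein of the same cells, was at 7.90, 7.53, 7.69 and 7.56 in medulla and at 11.33, 11.89, 12.45 and 12.09 in cortex. Medulla values lay below the dim mark for Calb1 and close to it for S100g, and cortex values of both were far above it in all 4 mice. Calb1 differed by -4.74 ± 0.62 (adjusted p = 0.00036; 26.7-fold more signal in cortex) and S100g by -4.27 ± 0.43 (adjusted p = 1.95e-05; 19.3-fold more signal in cortex). With mouse as a fixed block the adjusted p was 0.0132 for Calb1 and 0.0816 for S100g.

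Kl, which encodes klotho, the co-receptor for the phosphate-regulating hormone FGF23, was the third gene of calcium and phosphate handling that passed. It was at 7.61, 7.64, 7.33 and 7.39 in medulla and at 9.65, 9.06, 9.31 and 8.49 in cortex, a difference of -1.64 ± 0.29 (adjusted p = 0.0148). Of the 10 tested members of the calcium list, 3 were lower in the medulla and the others did not pass, all 10 differences were below 0, against 44.3% of all genes, and the list's median was -0.74. Vdr, the vitamin D receptor, differed by -0.96 ± 0.35 (adjusted p = 0.775), Pth1r, the parathyroid hormone receptor, by -0.77 ± 0.47, and Slc8a1, a sodium-calcium exchanger, by -0.71 ± 0.36. Atp2b1, a plasma membrane calcium pump, Trpv5, the apical calcium channel of the distal tubule, Trpm6, a magnesium channel, and Casr, the calcium-sensing receptor, differed by -0.21 ± 0.25, -0.30 ± 0.40, -0.06 ± 0.38 and -0.09 ± 0.23. The 3 genes that passed thus stand beside a channel and pumps of the same pathway with smaller differences that were not told apart from 0.

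Other members of the loop of Henle and distal tubule list had differences below 0 without passing. Slc12a3, the thiazide-sensitive sodium chloride cotransporter, was at 7.77, 7.68, 7.55 and 7.34 in medulla and at 9.07, 8.85, 9.53 and 9.28 in cortex, a difference of -1.60 ± 0.58 (adjusted p = 0.762). With the 8 arrays fitted alone its adjusted p was 0.0393 without a block and 0.469 with mouse as a fixed block. Pvalb, parvalbumin of the early distal convoluted tubule, differed by -1.59 ± 0.65 and Cldn16, a claudin that passes magnesium and calcium between thick limb cells, by -1.06 ± 0.65. For these 3 genes all medulla values lay below all cortex values. Wnk1, a kinase that regulates salt transport, differed by -0.19 ± 0.23.

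Of the proximal tubule list, 5 genes passed (Cyp2e1, Lrp2, Acsm2, Slc27a2 and Fbp1), all of them lower in the medulla. Cyp2e1, a cytochrome P450 that oxidises small molecules, had the largest difference of all genes tested. It was at 6.52, 7.20, 8.02 and 6.64 in medulla and at 12.81, 12.74, 11.96 and 12.69 in cortex, a difference of -5.46 ± 0.67 (adjusted p = 0.000206; 43.9-fold more signal in cortex). Lrp2, which encodes megalin, the receptor that takes filtered proteins back up, was at 7.28, 7.20, 7.67 and 7.07 in medulla and at 11.64, 10.74, 9.07 and 11.69 in cortex, a difference of -3.48 ± 0.52 (adjusted p = 0.00263). The 4 medulla arrays lay near the dim range for Lrp2, and the cortex array of mouse 3 was the lowest of the 4. With mouse as a fixed block the adjusted p was 0.203 for Cyp2e1 and 0.531 for Lrp2.

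Enzymes of acyl and sugar metabolism followed. Acsm2, a mitochondrial medium-chain acyl-CoA synthetase, was at 7.02, 6.58, 8.14 and 6.64 in medulla and at 12.23, 10.64, 10.02 and 11.30 in cortex, a difference of -3.95 ± 0.49 (adjusted p = 0.000206). Slc27a2, a fatty acid transporter with acyl-CoA synthetase activity, was at 8.22, 8.89, 11.26 and 7.63 in medulla and at 13.25, 12.90, 12.33 and 12.92 in cortex, a difference of -3.85 ± 0.77 (adjusted p = 0.03). Its medulla values were above the dim range, and that of mouse 3 came close to the cortex. Fbp1, fructose bisphosphatase of gluconeogenesis, was at 7.34, 7.01, 7.14 and 6.86 in medulla and at 11.56, 10.28, 8.54 and 9.91 in cortex, a difference of -2.99 ± 0.58 (adjusted p = 0.0276). Glyat, which joins glycine to acyl groups, differed by -2.72 ± 0.47 (adjusted p = 0.0119).

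Detoxifying enzymes and transporters of organic ions also passed. Sult1d1, a sulfotransferase, was at 7.56, 7.06, 9.09 and 5.93 in medulla and at 12.51, 11.67, 11.45 and 11.78 in cortex, a difference of -4.44 ± 0.84 (adjusted p = 0.0227). Ugt3a2, a glycosyltransferase, Inmt, an indolethylamine methyltransferase, and Cyp2j11, a cytochrome P450, differed by -3.24 ± 0.59, -3.17 ± 0.62 and -1.98 ± 0.34. Slco1a1, an organic anion transporter, was at 5.29, 5.24, 6.15 and 5.35 in medulla and at 10.30, 10.76, 8.21 and 9.36 in cortex, a difference of -4.15 ± 0.77 (adjusted p = 0.0217). Slc17a3, a urate and phosphate transporter, Slc4a4, the basolateral bicarbonate cotransporter, and Slc3a1, a subunit of the cystine transporter, differed by -3.33 ± 0.65, -2.89 ± 0.55 and -2.41 ± 0.43. In each of these 8 genes the highest medulla value was below the lowest cortex value.

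The remaining genes that passed on the lower side had other roles. Gpx3, the glutathione peroxidase that the kidney secretes into plasma, was at 8.06, 7.44, 9.71 and 7.45 in medulla and at 12.73, 11.83, 11.04 and 12.39 in cortex, a difference of -3.83 ± 0.64 (adjusted p = 0.00943). Atp6v1g3, a proton pump subunit of the acid-secreting intercalated cells of the collecting duct, was at 6.97, 7.86, 7.68 and 7.54 in medulla and at 11.59, 11.06, 9.84 and 11.28 in cortex, a difference of -3.43 ± 0.56 (adjusted p = 0.00897). Ndrg1, a hypoxia-responsive gene, and Tinag, an antigen of the tubular basement membrane, differed by -2.28 ± 0.45 and -2.14 ± 0.41. Atp6v0d2, another subunit of the pump, differed by -1.83 ± 0.75 with groups that did not overlap (adjusted p = 0.995). With mouse as a fixed block in the 8 arrays alone, 21 of the 22 genes no longer passed, with adjusted p up to 0.568.

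**Figure D2:**
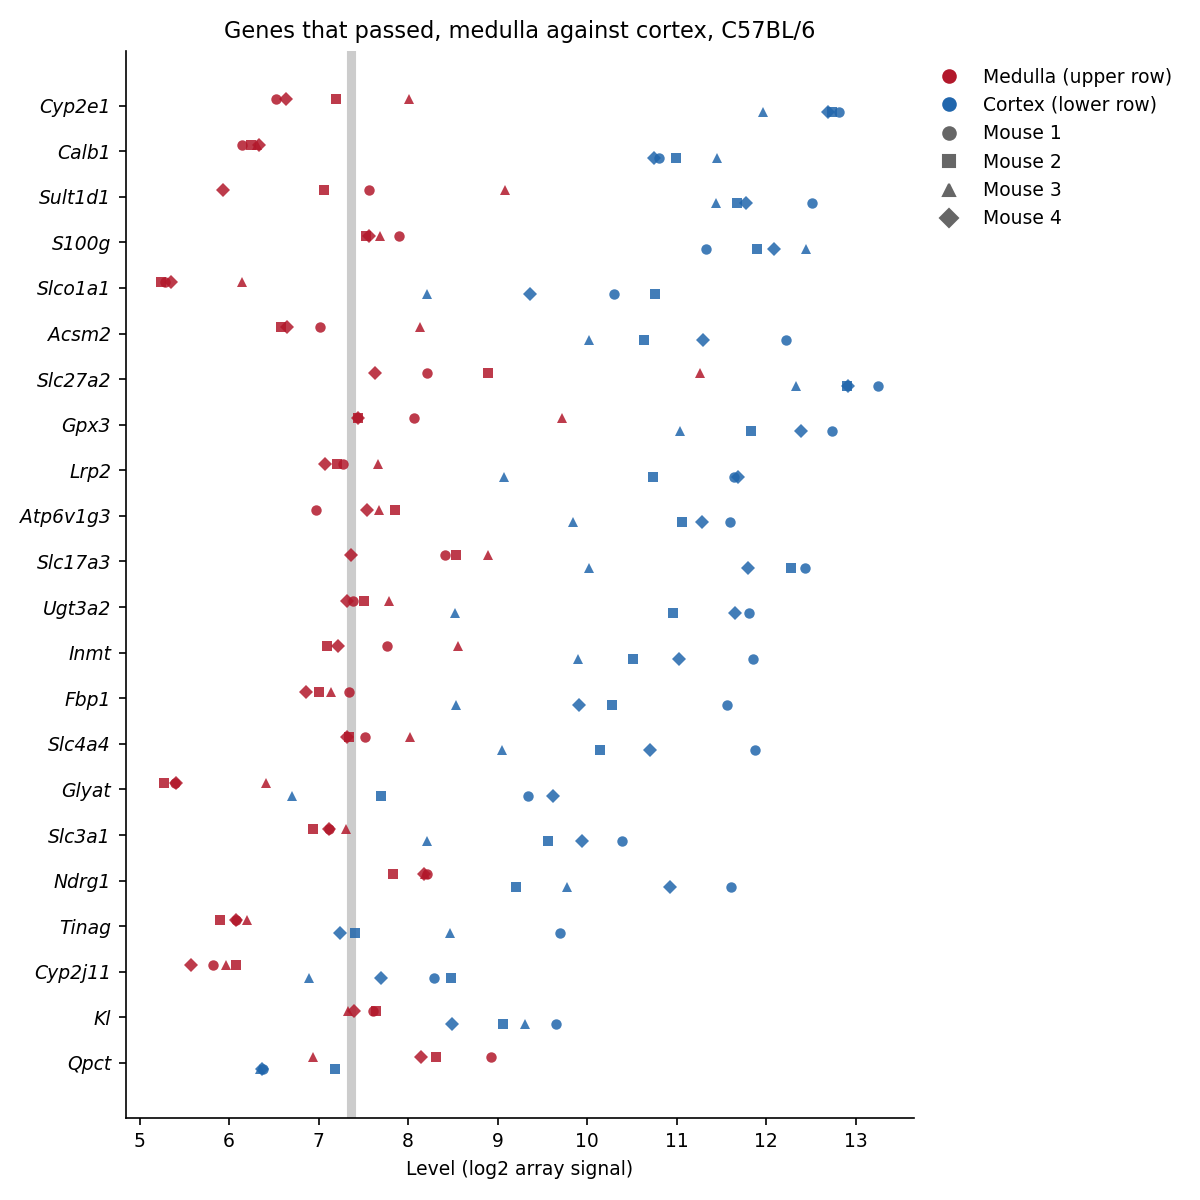
Levels (log2 array signal, horizontal axis) of the 22 genes that passed, in each C57BL/6 array, with medulla in red on the upper row and cortex in blue on the lower row of each gene; symbols mark the 4 mice, and the grey band is the 40th percentile of the arrays, 7.33 to 7.41. The triangles of mouse 3 lie between the other medulla and cortex values for many genes, while S100g and Calb1 are apart in all 4 mice.

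As whole lists, tubule markers had lower medians than the sorted proteins (0.01) or markers of other kidney cells. Of the 18 tested proximal tubule markers 5 were lower in the medulla, 13 did not pass, 17 differences were below 0, 11 genes had all medulla values below all cortex values, and the median was -1.54, beside 0.147% of all genes called lower, 44.3% below 0, 2.31% with all medulla values below all cortex values and a median of 0.02. The shares over all genes are the same beside the other lists. All lists were chosen with earlier results of these data known, so their counts are descriptions. The mean level of these markers ranged from 7.62 to 8.78 in medulla and from 9.40 to 11.06 in cortex. Of the 11 loop of Henle and distal tubule markers 2 were lower, all 11 differences were below 0 and the median was -1.59, with mean levels from 7.60 to 9.21 in medulla and from 9.90 to 10.39 in cortex. Of the 13 collecting duct markers 1 was lower and the median was -0.21, with mean levels from 7.40 to 7.50 in medulla and from 7.78 to 8.39 in cortex. No podocyte, endothelium or fibroblast and pericyte marker passed, with 4, 10 and 8 tested, and medians of 0.08, -0.04 and 0.04. Of 12 tested epithelium-wide markers none passed, 8 differences were below 0 and 4 above, and the median was -0.17. The part that RNA or cells of the tubules took in the differences was not tested, and in such bulk samples fewer cells of a type and less RNA per cell cannot be told apart.

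Among proximal tubule markers that did not pass, several had large differences. Keg1, a glycine acyltransferase-like gene of the kidney, was at 7.09, 6.74, 11.58 and 6.64 in medulla and at 12.91, 12.29, 11.77 and 12.89 in cortex, a difference of -4.45 ± 0.97 (adjusted p = 0.0655). Its groups did not overlap, but the medulla of mouse 3 reached almost the level of the cortex. Without both arrays of mouse 3, an alternative chosen after the data were seen, the difference was -5.87 (adjusted p = 0.00195). Mouse 3 had the smallest difference of Keg1, -0.184, so that choice by itself enlarges the difference. The adjusted p of Keg1 was 0.0347 with mouse as a random block and 0.558 with mouse as a fixed block. Cubn, which encodes cubilin, the partner of megalin, was at 6.46, 6.23, 6.79 and 6.25 in medulla and at 9.40, 7.97, 6.75 and 7.77 in cortex, a difference of -1.54 ± 0.33 (adjusted p = 0.064). Its adjusted p was 0.0347 with mouse as a random block and 0.648 with mouse as a fixed block. Kap, an androgen-regulated gene of the proximal tubule, was at 11.03, 10.78, 12.85 and 8.42 in medulla and at 13.26, 13.09, 12.84 and 13.07 in cortex, a difference of -2.29 ± 0.77. Miox, which breaks down inositol, differed by -2.30 ± 0.77, Slc5a12, a lactate cotransporter, by -1.54 ± 0.62, and Slc22a8, Slc13a3 and Slc22a6, carriers of organic anions and dicarboxylates, by -1.46 ± 0.39, -1.37 ± 0.46 and -1.36 ± 0.47. With array weights Slc22a8 had an adjusted p of 0.0237, and with mouse as a fixed block 0.547.

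Other members of the list lay closer to 0. Pck1, which encodes the cytosolic carboxykinase of gluconeogenesis, differed by -1.03 ± 0.39, Hnf4a, a transcription factor of the proximal tubule, by -0.73 ± 0.42, and Slc5a2, the glucose cotransporter SGLT2, by -0.27 ± 0.40. Gatm, the first enzyme of creatine synthesis, was at 11.99, 11.97, 11.74 and 11.89 in medulla and at 12.05, 11.96, 12.13 and 12.16 in cortex. Its difference of -0.18 ± 0.29 was small at a high level in both regions. Napsa, an aspartic protease that is also made by leukocytes, was the only one of the 18 above 0, at 0.50 ± 0.30.

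Lists of metabolic pathways also had medians below 0. All 8 tested genes of the list of gluconeogenesis and fructose handling were below 0, 2 of them passed and the median was -1.08. Those that passed were Fbp1, of gluconeogenesis, and Glyat, a glycine acyltransferase that was listed but belongs to neither pathway. Khk, the ketohexokinase that starts fructose breakdown, differed by -1.12 ± 0.40 with groups that did not overlap (adjusted p = 0.762). All 12 tested genes of fatty acid oxidation were below 0 with a median of -0.32, and none passed in the model of all arrays. The lowest of these were Acot12, an acyl-CoA thioesterase, at -1.75 ± 0.44, and Ehhadh, the peroxisomal bifunctional enzyme, at -1.75 ± 0.45, and both had groups that did not overlap. With array weights the adjusted p was 0.00298 for Acot12 and 0.0229 for Ehhadh, and without the cortex array of mouse 3 it was 0.0467 for Ehhadh. Mouse as a fixed block gave an adjusted p of 0.475 for Acot12 and 0.547 for Ehhadh.

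Of 13 cytochrome P450 and conjugating enzymes 1 passed, 11 were below 0 and the median was -1.18. Ugt2b38, a glucuronosyltransferase, was at 5.78, 6.06, 10.33 and 5.62 in medulla and at 12.15, 11.32, 9.89 and 11.74 in cortex, a difference of -4.32 ± 0.93 (adjusted p = 0.0614). Its adjusted p was 0.0347 with mouse as a random block and 0.611 with mouse as a fixed block. The order of the regions was turned round in mouse 3 alone. Akr1c21, an aldo-keto reductase, and Cyp4b1, a cytochrome P450, differed by -3.45 ± 0.77 (adjusted p = 0.0807, and 0.0477 with mouse as a random block) and by -2.33 ± 0.51 (adjusted p = 0.0671, and 0.0347 with mouse as a random block). With mouse as a fixed block both genes had an adjusted p of 0.547. Of 20 solute and organic ion transporters 1 passed, 18 were below 0 and the median was -0.88, and of 6 genes of the megalin and cubilin pathway 1 passed, 5 were below 0 and the median was -1.06.

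Promoters were read for the genes that passed, 21 of which were lower in the medulla and 1 higher. RefSeq windows on GRCm38.p6 were matched by symbol for 18 of the 22 genes, and the 250 bases before the annotated start were searched on both strands for 4 motifs. GTTAAT, a half-site of the kidney and liver factor HNF1, was in 3 of 18 windows (Acsm2, Atp6v1g3 and Sult1d1) and in 489 of the 11377 windows of tested genes (4.30%). AGGTCA, a half-site shared by many nuclear receptors, was in 3 of 18 (S100g, Slc27a2 and Slco1a1) and in 1329 (11.7%). CAAAGTCCA, a core of sites of the proximal tubule factor HNF4, was in 1 of 18 (Slc3a1) and in 40 (0.352%). ACGTG, the core of hypoxia response elements, was in 2 of 18 (Cyp2e1 and Slc27a2) and in 2316 (20.4%). No match overlapped another in these windows. Of the 7 windows with a match to the first 3 motifs, 4 are shown as examples, chosen so that each of these motifs appears, in capitals on the strand of the gene (a match on the opposite strand appears as its reverse complement), and a match is a description of letters only. S100g lies at chrX:162964600-162964849 on the minus strand, Acsm2 at chr7:119554090-119554339 on the plus strand, Slc3a1 at chr17:85028097-85028346 on the plus strand and Sult1d1 at chr5:87569007-87569256 on the minus strand.
S100g: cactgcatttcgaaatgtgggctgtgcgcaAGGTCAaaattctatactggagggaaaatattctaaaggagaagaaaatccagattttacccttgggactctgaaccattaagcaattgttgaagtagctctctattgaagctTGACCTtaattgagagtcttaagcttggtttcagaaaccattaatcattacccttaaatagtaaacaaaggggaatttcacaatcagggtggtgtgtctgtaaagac
Acsm2: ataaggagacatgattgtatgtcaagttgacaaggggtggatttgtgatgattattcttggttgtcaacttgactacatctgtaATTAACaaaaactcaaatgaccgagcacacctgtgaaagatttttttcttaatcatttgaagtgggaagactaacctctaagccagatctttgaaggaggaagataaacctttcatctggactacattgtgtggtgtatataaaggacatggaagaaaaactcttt
Slc3a1: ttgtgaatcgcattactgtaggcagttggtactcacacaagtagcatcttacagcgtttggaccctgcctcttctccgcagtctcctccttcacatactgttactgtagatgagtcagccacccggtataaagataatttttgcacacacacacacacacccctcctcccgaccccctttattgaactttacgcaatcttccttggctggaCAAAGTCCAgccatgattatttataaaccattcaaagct
Sult1d1: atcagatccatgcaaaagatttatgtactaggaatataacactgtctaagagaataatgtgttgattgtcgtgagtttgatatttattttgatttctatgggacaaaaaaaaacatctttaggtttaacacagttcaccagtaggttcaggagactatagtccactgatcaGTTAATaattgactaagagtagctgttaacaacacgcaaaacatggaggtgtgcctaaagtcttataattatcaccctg

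On the higher side, 1 gene passed. Qpct, which encodes glutaminyl cyclase, an enzyme that modifies the first residue of chemokines and hormones, was at 8.92, 8.31, 6.94 and 8.14 in medulla and at 6.38, 7.18, 6.34 and 6.36 in cortex, a difference of 1.51 ± 0.29 (adjusted p = 0.0276). The groups overlapped, since the medulla of mouse 3 was below the cortex of mouse 2, although the medulla was higher within each of the 4 mice. Leaving out any of 6 of the 8 arrays ended the call.

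Genes with all medulla values above all cortex values and the smallest p included receptors and a chemokine of leukocytes, and none of those named here passed in the model of all arrays. With array weights, 7 of them did (Il1r2, Clec4g, Klra17, Ccl22, Inka1, Kcne3 and Rpl8, adjusted p from 0.0184 to 0.0386). None of these 7 passed with mouse as a fixed block (adjusted p from 0.547 to 0.646). Il1r2, the decoy receptor of interleukin-1, was at 8.99, 10.96, 8.53 and 9.99 in medulla and at 7.92, 7.40, 8.25 and 7.40 in cortex, a difference of 1.87 ± 0.46 (adjusted p = 0.136). Without both arrays of mouse 3, an alternative chosen after the data were seen, its adjusted p was 0.0259. Mouse 3 had the smallest difference of Il1r2, 0.275, so that choice by itself enlarges the difference. Clec4g, a C-type lectin, and Klra17, a receptor of the Ly49 family, differed by 0.90 ± 0.22 and 2.00 ± 0.59. A second Clec4g probeset, below the dim mark at 6.755 in medulla and 6.778 in cortex, differed by -0.023. Ccl22, a chemokine of mature dendritic cells that draws CCR4-bearing T cells, was at 7.66, 7.66, 8.57 and 7.50 in medulla and at 7.01, 7.05, 6.96 and 7.23 in cortex, a difference of 0.78 ± 0.22 (adjusted p = 0.248). Inka1, an inhibitor of the kinase PAK4, Kcne3, a potassium channel subunit, Apol7c, an apolipoprotein L gene, and Rpl8, a ribosomal protein, differed by 0.80 ± 0.19, 1.06 ± 0.30, 1.33 ± 0.40 and 0.49 ± 0.14. Apol7c was at 9.80 and 9.73 in the medulla of mice 3 and 4 but at 7.46 and 7.35 in that of mice 1 and 2, against 7.20 to 7.30 in cortex.

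Markers of type 2 conventional dendritic cells, the subset that presents antigen chiefly to helper T cells, had differences above 0 in 5 of 7 cases, and none passed in the model of all arrays. Of 7 tested, 5 had all medulla values above all cortex values, which was so for 1.91% of all genes, and the median was 0.64. The list, which includes Tnip3, was chosen with earlier results of these data known, so these counts are a description only. Tnip3, a regulator of NF-kappaB signalling, was at 7.99, 10.47, 7.95 and 10.60 in medulla and at 6.22, 7.45, 7.91 and 6.72 in cortex, a difference of 2.17 ± 0.53 (adjusted p = 0.136). Without both arrays of mouse 3, an alternative chosen after the data were seen, the difference of Tnip3 was 2.88 (adjusted p = 0.0154). Mouse 3 had the smallest difference of Tnip3, 0.04, so that choice by itself enlarges the difference. The adjusted p of Tnip3 was 0.0439 with array weights and 0.621 with mouse as a fixed block. Clec10a, a galactose-type lectin, was at 9.94, 9.04, 8.87 and 9.72 in medulla and at 8.36, 8.52, 8.00 and 7.23 in cortex, a difference of 1.36 ± 0.45 (adjusted p = 0.535). Itgam, which encodes CD11b, was at 9.93, 9.91, 9.99 and 9.97 in medulla and at 9.07, 9.40, 9.21 and 9.55 in cortex, a difference of 0.64 ± 0.28. The 4 medulla values of Itgam were close together and above those of the cortex. Cd209a, which encodes a DC-SIGN homologue, was at 11.65, 12.11, 11.56 and 11.65 in medulla and at 11.14, 11.24, 10.63 and 9.85 in cortex, a difference of 1.03 ± 0.59, and Mgl2, another galactose-type lectin, differed by 0.60 ± 0.49. Sirpa, an inhibitory receptor, and Cd209d differed by -0.13 ± 0.49 and -0.05 ± 0.80 with groups that overlapped.

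Markers of type 1 conventional dendritic cells, the subset that cross-presents to cytotoxic T cells, showed no common direction. Of 10 tested none passed, 6 were above 0, 1 had groups that did not overlap and the median was 0.12. Clec9a, a receptor for dead cells, was at 12.61, 11.82, 12.40 and 12.24 in medulla and at 11.77, 12.51, 12.36 and 11.71 in cortex, a difference of 0.18 ± 0.85. Xcr1, the chemokine receptor of this subset, was at 6.68, 8.58, 7.76 and 8.44 in medulla and at 8.62, 8.12, 9.09 and 6.50 in cortex, a difference of -0.22 ± 0.80. Values of Xcr1 ran in opposite directions between mice. Wdfy4, needed for cross-presentation, differed by 0.72 ± 0.47 with groups that did not overlap, Itgae, which encodes CD103, by 0.55 ± 0.21, and Batf3, a transcription factor of the subset, by 0.41 ± 0.37. A second Wdfy4 probeset, at 8.745 in medulla and 8.606 in cortex, differed by 0.139. Irf8, Tlr3, Naaa, Ifi205 and Cadm1 differed by 0.14 ± 0.45, 0.11 ± 0.37, -0.01 ± 0.47, -0.13 ± 0.91 and -0.29 ± 0.21.

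Most other immune lists had medians near 0, with single members further off, and no member passed at an adjusted p under 0.05 over all genes. The medians of B cell and monocyte markers were further below 0, at -0.315 and -0.252. In each of these lists 5 of 6 tested genes were below 0. Flt3, the growth factor receptor that dendritic cells depend on, was at 9.37, 10.69, 10.28 and 10.05 in medulla and at 8.43, 9.34, 9.37 and 8.39 in cortex, a difference of 1.21 ± 0.54 (adjusted p = 1, groups overlapping). Of 16 genes of dendritic cell maturation 13 were above 0 with a median of 0.15, and of 15 inflammatory cytokines and chemokines 13 were above 0 with a median of 0.17. Ccl17, which shares its receptor with Ccl22, was at 8.76, 9.12, 9.28 and 8.66 in medulla and at 7.40, 7.23, 8.08 and 8.33 in cortex, a difference of 1.19 ± 0.49. Tnf, the tumour necrosis factor, was at 9.38, 9.11, 10.77 and 9.56 in medulla and at 8.21, 8.66, 9.04 and 8.56 in cortex, a difference of 1.08 ± 0.47. All medulla values of both chemokine and cytokine lay above all cortex values. Ccr7, the receptor that guides mature dendritic cells to lymph nodes, was on the other side at -0.43 ± 0.26, with all medulla values below all cortex values.

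Resident macrophage markers, 13 tested, had a median of 0.02, with 6 of them below 0, differences from -0.38 to 0.51, and mean levels from 11.32 to 11.45 in medulla and from 11.30 to 11.38 in cortex. Mrc1, the mannose receptor, was the highest of these differences, at 12.60, 12.21, 12.25 and 12.14 in medulla and at 11.72, 11.78, 11.68 and 11.96 in cortex, a difference of 0.51 ± 0.33. The 9 genes of MHC class II presentation had a median of 0.05 and the 9 of MHC class I presentation a median of 0.21. The 16 genes of the type I interferon response had a median of -0.19, and Xaf1, an interferon-induced gene, differed by -0.98 ± 0.42 with groups that did not overlap. Of 19 immediate early genes, which rise within minutes of stimulation or tissue digestion, 16 were above 0 with a median of 0.22, and Zfp36, an RNA-binding brake on cytokine transcripts, was at 12.48, 12.18, 12.03 and 12.21 in medulla and at 11.50, 11.88, 11.81 and 11.78 in cortex. The 5 tested natural killer cell markers had a median of 0.02, with 2 below 0 and the lowest at -1.24. The highest was Klrd1, which encodes CD94, at 11.37, 12.09, 11.02 and 11.19 in medulla and at 10.46, 10.14, 9.00 and 7.03 in cortex, a difference of 2.26 ± 0.87 (adjusted p = 0.89).

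The lists tied to the milieu of the medulla, osmotic stress and hypoxia with glycolysis, had medians of 0.23 and 0.16, beside 0.02 for all genes. Single members lay further off. Of 8 tested targets and regulators of the osmotic response none passed, 5 were above 0 and the median was 0.23. Slc6a12, the betaine transporter that NFAT5 induces in salty surroundings, was at 8.94, 8.59, 8.90 and 8.12 in medulla and at 7.96, 7.77, 7.90 and 7.77 in cortex, a difference of 0.79 ± 0.32. Nfat5 itself, the osmotic stress factor, was at 9.66, 9.16, 8.71 and 9.67 in medulla and at 8.86, 9.02, 9.40 and 8.58 in cortex, a difference of 0.33 ± 0.43. The groups did not overlap for Slc6a12 and S100a4 (0.88 ± 0.66), a calcium-binding protein, and overlapped for Nfat5. Slc38a2, an amino acid transporter, Slc5a3, the inositol transporter, Slc6a6, the taurine transporter, Hspa4l, a chaperone, and Aqp1, a water channel of proximal tubules and thin limbs, differed by 1.22 ± 0.81, 0.12 ± 0.89, -0.12 ± 0.22, -0.41 ± 0.40 and -0.55 ± 0.44. Of 13 genes of hypoxia and glycolysis 1 passed, Ndrg1 on the lower side, and the median was 0.16. Car9, a carbonic anhydrase induced by hypoxia, differed by -0.69 ± 0.18 (adjusted p = 0.189) with all medulla values below all cortex values. Its adjusted p was 0.023 without the cortex array of mouse 3 and 0.621 with mouse as a fixed block.

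The 4 mice were not alike in the tubule genes. The median difference of the 21 genes that passed on the lower side was -4.36, -3.46, -1.41 and -4.22 in mice 1 to 4, and mouse 3 had the smallest difference in 16 of them. In mouse 3 the cortex array was the lowest of the 4 cortex arrays in 16 of the 21 genes, and the medulla array was the highest of the 4 medulla arrays in 14. The mean difference of the 18 proximal tubule markers was -3.07, -2.13, -0.62 and -2.56 in mice 1 to 4. For the 10 calcium genes it was -1.37, -1.40, -1.54 and -1.20, and for the 7 markers of type 2 conventional dendritic cells it was 0.32, 1.14, 0.49 and 1.26. The mean of the proximal tubule list was thus nearest to 0 in mouse 3. Cyp2e1, Acsm2 and Lrp2 still differed there by -3.95, -1.89 and -1.41. The mean of the calcium list was not nearer to 0 in mouse 3, but its medians were -1.057, -0.755, -0.629 and -0.377 in mice 1 to 4. In mouse 3 Calb1, S100g, Kl and Trpv5 differed by -5.136, -4.755, -1.985 and -1.614, and the other calcium genes were nearer to 0. Without both arrays of mouse 3, an alternative chosen after the data were seen, 58 genes passed, 7 higher and 51 lower in the medulla, 20 of them among the 22.

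**Figure D3:**
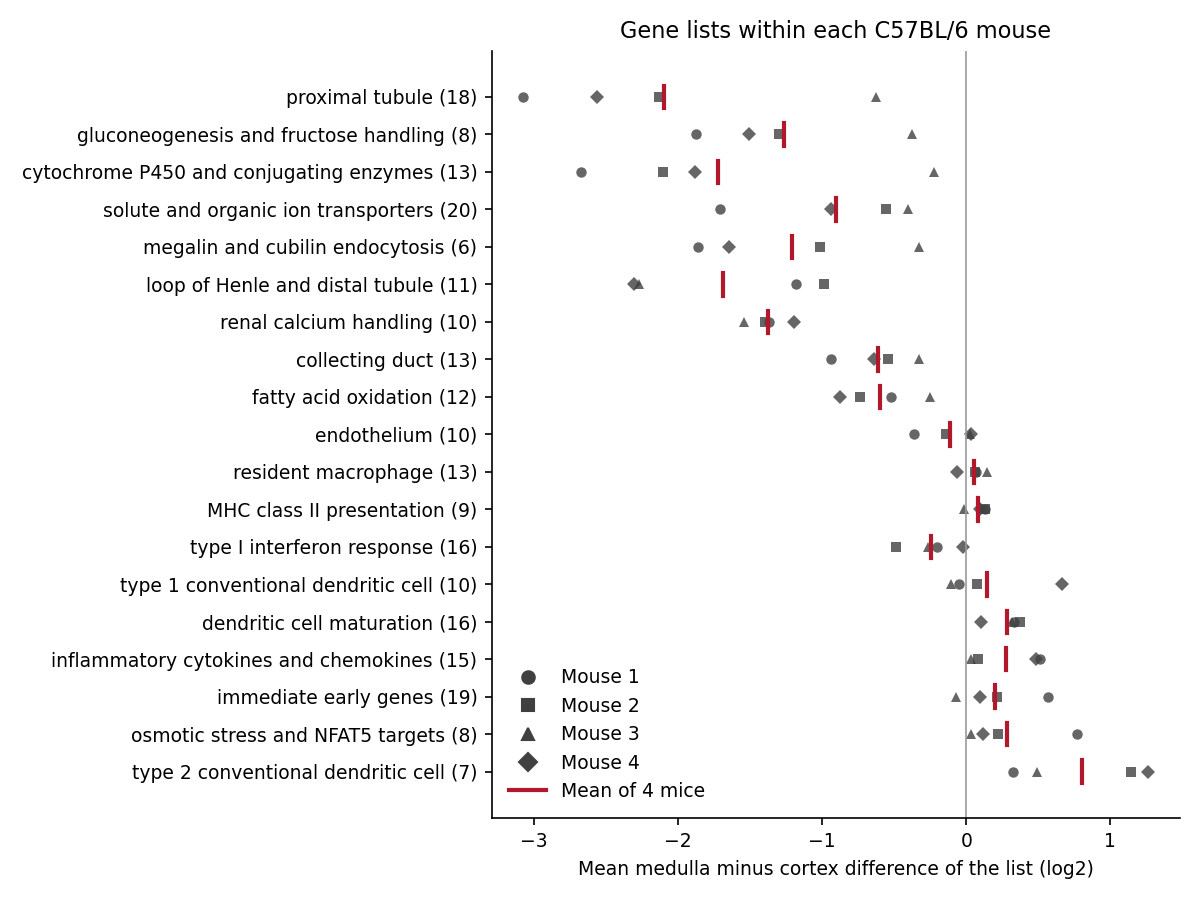
Mean medulla minus cortex difference (log2, horizontal axis) of 19 gene lists within each of the 4 C57BL/6 mice, with the number of genes tested in parentheses; symbols are mice and red bars are means of the 4 mice. Mouse 3 lies nearest to 0 in the proximal tubule list, at -0.62, and not in the list of calcium genes, at -1.54. The medians of the calcium genes, not drawn, were -1.057, -0.755, -0.629 and -0.377 in mice 1 to 4.

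Genes of the thick ascending limb, the segment of the loop of Henle that reabsorbs salt without water and lies in outer medulla and cortex, split the medulla arrays instead. Umod, which encodes uromodulin, the most abundant protein of urine, was at 12.67, 12.76, 9.64 and 8.12 in medulla and at 12.48, 11.96, 11.52 and 11.54 in cortex, a difference of -1.08 ± 1.07. Slc12a1, the loop diuretic-sensitive cotransporter NKCC2, was at 11.72, 11.88, 7.90 and 6.26 in medulla and at 11.11, 10.46, 9.69 and 8.75 in cortex, a difference of -0.56 ± 1.11. Kcnj1, the potassium channel ROMK, was at 11.18, 11.02, 7.63 and 7.42 in medulla and at 11.19, 11.13, 10.41 and 11.22 in cortex, a difference of -1.68 ± 0.82. In each of these 3 genes the medulla of mice 1 and 2 was near or above the cortex, and that of mice 3 and 4 was below all 4 cortex arrays. Egf, the growth factor precursor made in thick limb and distal tubule, had the same split, at 11.04, 11.40, 7.78 and 7.89 in medulla and at 11.62, 11.42, 11.10 and 10.74 in cortex, a difference of -1.69 ± 0.93. None of the 4 genes passed.

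**Figure D4:**
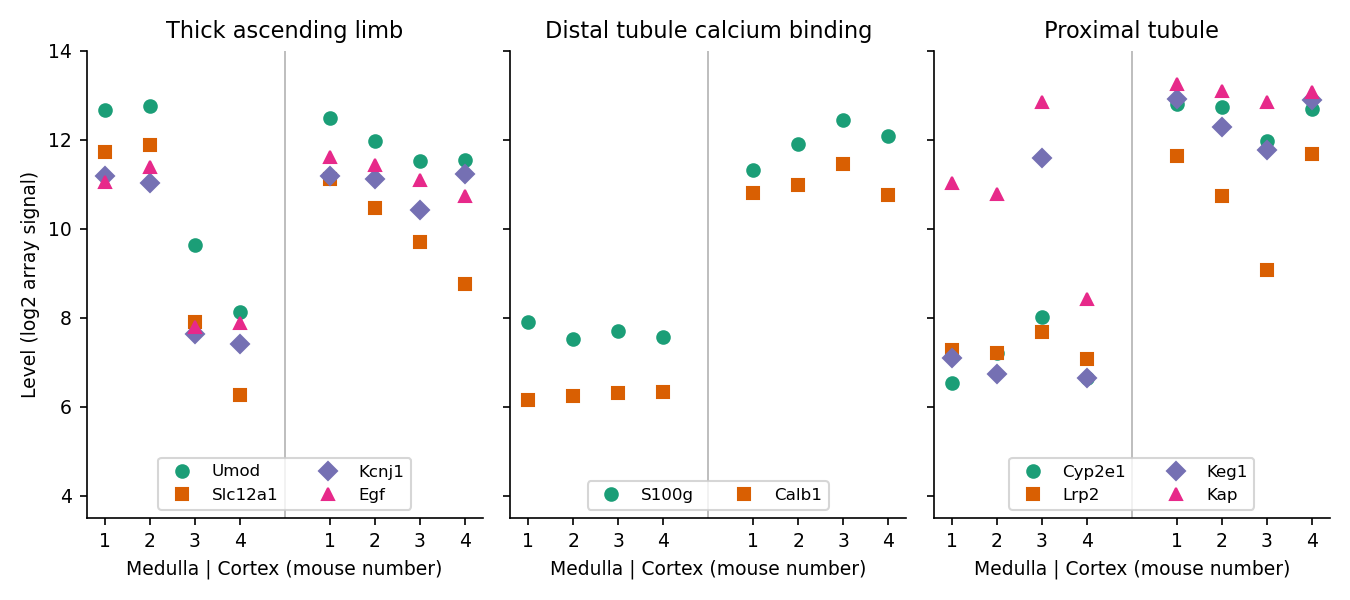
Levels (log2 array signal, vertical axis) of genes of 3 nephron segments in each C57BL/6 array, with medulla left of the line and cortex right of it, by mouse number. Thick ascending limb genes are high in the medulla of mice 1 and 2 and low in that of mice 3 and 4; S100g and Calb1 are low in all 4 medulla arrays; Keg1 and Kap are near cortex levels in the medulla of mouse 3.

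The strains were compared by the difference between the medulla minus cortex difference of BALB/c cells and that of C57BL/6 cells, with 4 mice each. Within BALB/c cells 10 genes passed (0.0698%), and none of the 22 of C57BL/6 cells was among them. Across the 14325 genes the differences in BALB/c and in C57BL/6 cells had a Pearson r of 0.125, given as a description over genes that share arrays and normalization. Of the 21 genes that were lower in the C57BL/6 medulla, 19 were also below 0 in BALB/c, against 6469 of all 14325 genes. Their median was -1.25 in BALB/c and -3.33 in C57BL/6 cells. The C57BL/6 values chose these genes, so a smaller difference in BALB/c can follow from the choice alone. Cyp2e1 differed by -3.38 ± 0.67 in BALB/c (adjusted p = 0.0528) and by -5.46 ± 0.67 in C57BL/6 cells, and Gpx3 by -2.66 ± 0.64 in BALB/c and by -3.83 ± 0.64 in C57BL/6 cells. Sult1d1 differed by 0.59 ± 0.84 in BALB/c and by -4.44 ± 0.84 in C57BL/6 cells, and Kl by -0.20 ± 0.29 in BALB/c and by -1.64 ± 0.29 in C57BL/6 cells. None of the 22 genes passed the test of the strain difference in limma, 17 of them had an unadjusted p under 0.05 for it, against 4.27% of all genes, and the C57BL/6 values that chose these genes enter that test. BALB/c arrays correlated at 0.788 to 0.9 with the others of their group, less closely than C57BL/6 arrays.

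**Figure D5:**
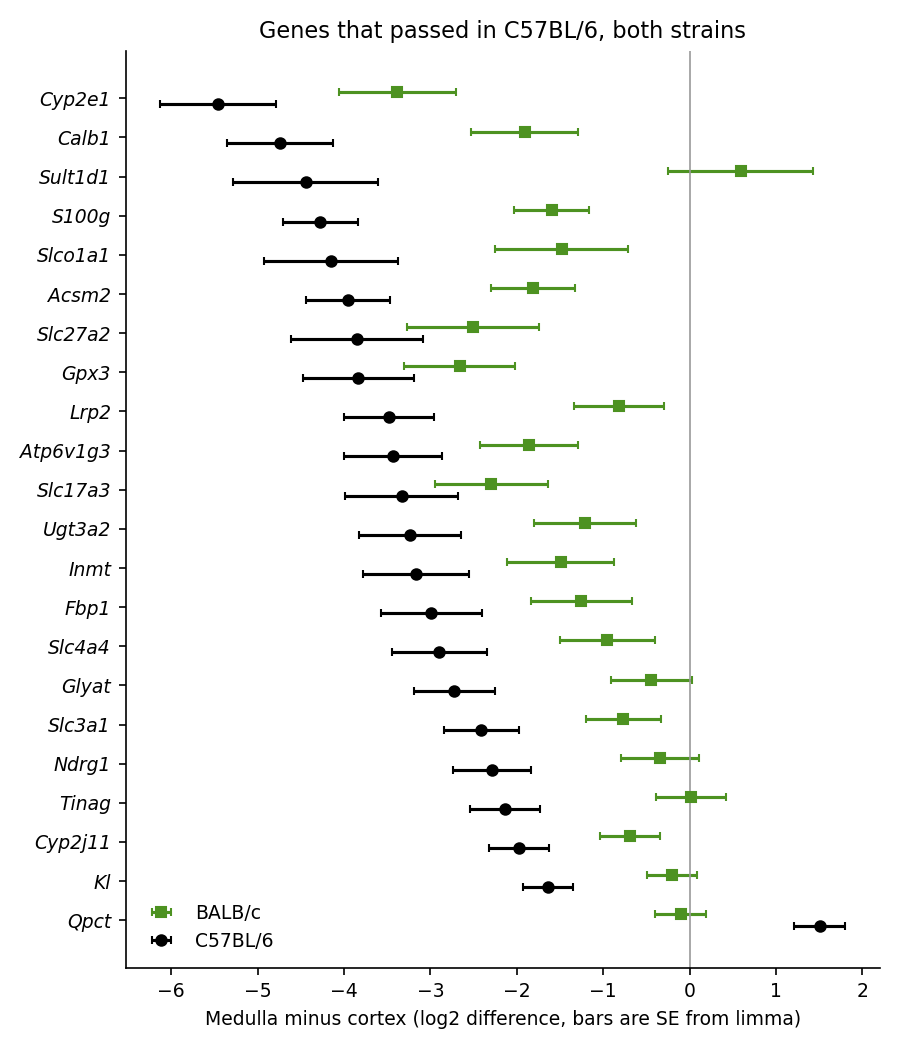
Medulla minus cortex difference (log2, horizontal axis) of the 22 genes that passed in C57BL/6 cells, in BALB/c (green squares) and in C57BL/6 cells (black circles), with standard errors from limma. The BALB/c values lie nearer to 0 than the C57BL/6 values in all 22 genes, and none of the differences between strains passed. The genes were chosen by their C57BL/6 values, so values nearer to 0 in BALB/c can follow from the choice alone.

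The strain difference passed for 6 other genes (0.0419%), 1 higher and 5 lower in BALB/c, and 5 of them also passed within BALB/c and none within C57BL/6 cells. Lsm10, a subunit that processes histone transcripts, differed by 3.73 ± 0.57 in BALB/c and by -0.81 ± 0.57 in C57BL/6 cells. Eef1e1, a scaffold protein of tRNA synthetases, differed by -3.49 ± 0.58 in BALB/c and by 0.94 ± 0.58 in C57BL/6 cells. Snrpa1, a spliceosome protein, Cd300ld, a myeloid receptor, and Zfp638, a nucleic acid-binding zinc finger protein, differed by -3.35 ± 0.44, -2.59 ± 0.37 and -2.18 ± 0.31 in BALB/c and by 0.47 ± 0.44, 0.28 ± 0.37 and 0.27 ± 0.31 in C57BL/6 cells. Hlx, a homeobox factor of blood cells, differed by -0.87 ± 0.18 in BALB/c and by 0.59 ± 0.18 in C57BL/6 cells. These calls were lost with 8 of the arrays left out in turn in limma, and also without the filter on dim genes. Among dendritic cell genes, Itgam differed by -1.38 ± 0.28 in BALB/c and by 0.64 ± 0.28 in C57BL/6 cells, a difference between strains of -2.02 (adjusted p = 0.0672), and Il1r2 by -1.29 ± 0.46 in BALB/c and by 1.87 ± 0.46 in C57BL/6 cells, a difference between strains of -3.17 (adjusted p = 0.11). Slc12a1 differed by 4.26 ± 1.11 in BALB/c and by -0.56 ± 1.11 in C57BL/6 cells, a difference between strains of 4.82 (adjusted p = 0.881).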

How the data were processed

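RNA of sorted renal dendritic cells was measured on 28 arrays in 8 groups. The authors deposited log2 signal per probeset, produced by RMA in oligo according to the submitters' processing notes; the sources used here give neither tool versions nor a genome build. RMA corrects background, equalises the distributions of arrays and summarises probes, so a change of all genes at once cannot be seen. Values were used as given.

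Of 22549 probesets, 20646 with 1 gene symbol were kept (551 had several symbols and 1352 none), and 20596 matched the mouse gene table by gene ID. For each of 19272 symbols the probeset with the highest mean stood for the gene (810 had more than 1). Genes above the 40th percentile of their array in at least 3 arrays were tested, 14325 in all.

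A linear model of all 28 arrays with a mean for each group was fitted in limma 3.58.1 (R 4.3.3), leaving 20 residual degrees of freedom, with moderated 2-sided tests and Benjamini-Hochberg adjustment over all genes tested. A gene passed at an adjusted p under 0.05. Precision is limited by the number of arrays. The script was tested on simulated data with known changes.

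Medulla and cortex arrays with the same mouse number came from the same animal, per the labels. Residuals of such pairs correlated at 0.001, -0.02, -0.013 and 0.019 in mice 1 to 4 (mean -0.003, and 0.001 between different mice), and the consensus correlation over all arrays was 0.134. Mouse as a random and as a fixed block, other filters, normalizations, variance models and single arrays left out were the alternatives.

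The members and gene lists were chosen with earlier results of these data known. Named genes were all that passed, the 10 higher and 10 lower genes of smallest p whose groups did not overlap, up to 6 genes of each list by p, and all tested members of the lists of sorted proteins, dendritic cell subsets, proximal and distal tubule, osmotic stress and calcium handling; some names were left out for length.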

Additional observations from a re-analysis of the deposited data

Results flagged for a closer look

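Of 156 sets of 4 arrays examined (a gene or a list in 1 region), 11 had 1 array far from the other 3; chance alone marks about 1 such set in 20. Of these, 6 belonged to mouse 3. Its medulla array was high for Keg1, at 11.58 against a median of 6.74 in the other mice, for Glyat, at 6.42 against 5.39, for Slco1a1, at 6.15 against 5.29, and for the mean of the cytochrome P450 and conjugating enzymes, at 8.21 against 7.10. Its cortex array was low for Cyp2e1, at 11.96 against 12.73. Its cortex array was also low for Kcnj1, at 10.41 against 11.19. In mouse 2 the medulla was low for Ndrg1, at 7.83 against 8.19, and high for Cd209a, at 12.11 against 11.65, and the cortex was high for Qpct, at 7.18 against 6.36. The medulla of mouse 4 was high for the mean of the sorted proteins, at 12.59 against 12.50, and that of mouse 1 was low for the mean of chemokine receptors, at 8.89 against 9.62.

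The medulla minus cortex difference of BALB/c minus that of C57BL/6 cells passed in limma for Snrpa1 (-3.81), Eef1e1 (-4.43), Cd300ld (-2.87), Zfp638 (-2.45), Hlx (-1.46) and Lsm10 (4.54).

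Probesets without a single gene symbol were outside the comparison. In a fit of 16806 probesets 26 passed, 3 of them of this kind, and all 3 were lower in the medulla. Probeset 10465742, with 3 listed symbols, was at 5.47 ± 0.12 in medulla and at 9.90 ± 1.34 in cortex (SD, n = 4 each), a difference of -4.43. Probesets 10512904 and 10365545, with no listed symbol, differed by -3.74 and -2.53.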

How the results depend on the processing

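The count of 22 genes for medulla minus cortex in C57BL/6 cells was 38 with mouse as a random block (replicate block), all 22 among them. With the 8 arrays fitted alone it was 1 with mouse as a fixed block. Without a block those arrays gave 5, of which only 3 were among the 22. The count was 100 with array weights (16 higher, 84 lower). It was 58 without both arrays of mouse 3, an alternative chosen after the data were seen. With 1 C57BL/6 array left out it was 6 to 55. The other settings run (no filter, a strict filter, a second quantile normalization, centred arrays, a robust variance trend, the most variable probeset, and without BALB/c medulla replicate 1) gave counts within 1.5 times of 22. Calb1 passed under every setting run, and 5 genes (S100g, Acsm2, Cyp2e1, Calb1 and Lrp2) passed with any 1 C57BL/6 array left out. The signs of the 22 genes held throughout. Medians of 13 lists moved by more than the spread between mice in 29 instances. Among medians given above, that of type 2 conventional dendritic cell markers was 0.82 without the filter, those of endothelium and of natural killer cell markers -0.53 and 0.51 with the strict filter, that of resident macrophage markers 0.09 without the cortex array of mouse 4, and those of hypoxia and glycolysis and of dendritic cell maturation -0.01 and 0.20 without both arrays of mouse 3.

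The count of 6 for BALB/c minus C57BL/6 was 3 with the groups compared alone. It was 0 in limma with mouse as a fixed block (796 genes at an unadjusted p under 0.05), without the filter (768), with centred arrays (691) and with a robust trend (610), and 0 to 11 with 1 array left out, where 8 settings at 0 had 484 to 734 genes at an unadjusted p under 0.05.

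Signs turned for 15 named genes, none of which passed. A second quantile normalization gave Ptprc -0.026, H2-Ab1 -0.034 and Naaa 0.068. Array weights gave Ptprc -0.006, Cd209d 0.026 and Slc5a3 -0.095. Without both arrays of mouse 3, Xcr1 was 0.154, Ifi205 0.216, Trpm6 0.006 and Trpv5 0.134. With 1 array left out the values spanned Ptprc -0.044 to 0.044, H2-Ab1 -0.017 to 0.065, H2-Aa -0.003 to 0.049, Xcr1 -0.744 to 0.18, Irf8 -0.028 to 0.348, Tlr3 -0.281 to 0.274, Ifi205 -0.42 to 0.081, Naaa -0.319 to 0.329, Cd209d -0.604 to 0.65, Slc5a2 -0.406 to 0.003, Slc12a1 -1.377 to 0.496, Slc5a3 -0.422 to 0.563, Trpv5 -0.473 to 0.101 and Casr -0.243 to 0.004. The causes were not tested. For genes in the dim range the signal gives only a bound on the level.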

Other observations

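A receptor gene, a B cell gene and complement genes are given here with their values. Ly96, the MD-2 partner of the endotoxin receptor, was at 5.35, 6.93, 8.55 and 8.27 in the medulla of mice 1 to 4 and at 10.68, 8.21, 10.11 and 9.62 in their cortex, a difference of -2.38 ± 0.95 (adjusted p = 0.961). Pax5, the B cell transcription factor, was at 7.70, 7.84, 7.79 and 7.79 in medulla and at 8.91, 8.64, 7.93 and 7.96 in cortex, a difference of -0.58 ± 0.18 (adjusted p = 0.442), and its cortex values were higher in mice 1 and 2. Cfb, complement factor B, differed by -1.20 ± 0.39, and Cfp, properdin, by 0.82 ± 0.28 with all medulla values above all cortex values; neither passed.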
